A study of Mus musculus with 12 samples.

Results

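The genes described here are 42 genes of protein folding in the endoplasmic reticulum (ER) and of the unfolded protein response, out of 25239 genes in the count table. They were listed by gene symbol for their textbook roles, in 8 groups: chaperones, J-domain co-chaperones, disulfide isomerases, prolyl isomerases with the reticulocalbin Rcn3, stress sensors, transcription factors, targets of ATF4 and CHOP, and ER-associated degradation. The list was made with earlier results of these data known, so its shares beside those of all genes are descriptive. All 42 were measured, and all 42 were among the 14901 genes that passed the low-count filter and were tested. RNA came from sorted fibroblasts of back skin of wild-type male C57BL/6 mice aged 8 weeks. After mincing and liberase digestion, viable cells negative for CD45 and CD31 were sorted for SCA1 on the surface, so fibroblasts without SCA1 were not sampled. Unwounded skin (NW) was the baseline, and full-thickness excisions made with a 4 mm punch were taken at 16 h, 1.5 d and 3 d, with 3 libraries from 3 mice in each group.

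The ER folds secreted proteins such as collagens with the help of chaperones, of isomerases that form disulfide bonds and of isomerases that turn proline bonds. When unfolded protein builds up, the membrane sensors IRE1 (gene Ern1), PERK (Eif2ak3) and ATF6 start the unfolded protein response. IRE1 splices Xbp1 mRNA, ATF6 is cleaved to a transcription factor, and PERK phosphorylates eIF2alpha, which slows translation while favouring translation of ATF4. Counts per gene do not separate spliced from unspliced Xbp1 and do not measure cleavage, phosphorylation or translation.

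The 12 libraries held between 26389453 and 43493475 counted fragments. The fibroblast transcripts Col1a1, Col1a2 and Col3a1 each averaged 14162 CPM or more in every group (CPM, counts scaled to library size with TMM normalisation). The 10 fibroblast markers together nevertheless varied, with 9.09 to 17.97% of counts in NW libraries, 4.39 to 10.3% (16 h), 8.45 to 11.2% (1.5 d) and 12.3 to 20.5% (3 d). At 16 h 4 of them fell and 1 rose; Col1a2 averaged 14162 ± 9764 CPM, against 49031 ± 17916 CPM in NW (SD, n = 3 each). Keratinocyte transcripts were present in all libraries and higher in NW: 15 markers together took 1.92 to 3.97% of counts in NW libraries, then 0.834 to 1.31% (16 h), 0.402 to 0.719% (1.5 d) and 0.0801 to 1.32% (3 d). Of these markers 6 fell at 16 h, 12 at 1.5 d and 10 at 3 d, and none rose by the same test; Krt14 had the highest level and was detected in every library. The 18 genes that respond to tissue dissociation took 2.11 to 2.62% of counts in NW libraries, then 1.15 to 1.67% (16 h), 0.961 to 1.30% (1.5 d) and 0.786 to 1.16% (3 d). At 16 h 4 of 6 tested neutrophil markers rose and 0 fell, while of 12 macrophage markers 5 rose and 1 fell. Among all genes tested 13.5% rose and 11.2% fell. The macrophage marker Csf1r averaged 16.6 ± 4.62 CPM at 16 h, against 60.1 ± 29.4 CPM in NW. Neutrophil markers took no more than 0.00241% of counts in any library, and macrophage markers no more than 0.0122%. The 9 markers of B cells and of plasma cells, which are rich in ER, took at most 0.00176% of counts; Irf4 reached 14.3 CPM in a library, each other marker stayed under 1 CPM, and Ms4a1 had no counts. The part of these cells in the results was not tested.

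The 42 genes together took 1.07%, 0.904% and 1.09% of all counts in the NW libraries, 1.68%, 1.74% and 1.75% at 16 h, 2.30%, 2.09% and 2.28% at 1.5 d, and 2.18%, 1.72% and 2.11% at 3 d. Every wound library lay above every NW library. Adjusted p values are from edgeR's quasi-likelihood test over all 14901 genes, with Benjamini-Hochberg adjustment, and a gene is said to have risen or fallen where it was under 0.05. Of the 42 genes, 27 differed among the 4 groups, beside 29.7% of all genes tested. At 16 h against NW 15 genes rose and 4 fell, 45.2% of the 42, beside 13.5% up, 11.2% down and 24.7% in all among the genes tested. At 1.5 d 23 rose and 2 fell (59.5%), beside 13.7%, 10.8% and 24.5%. At 3 d 19 rose and 3 fell (52.4%), beside 12.0%, 9.15% and 21.1%. DESeq2 gave 7 that fell at 16 h, and limma-voom 4 that fell at 1.5 d. Without 1.5 d replicate 1 the number that fell at 1.5 d was 6, without 1.5 d replicate 3 it was 1, and without 3 d replicate 1 the number that fell at 3 d was 1. The median log2 change of the 42 was 0.57 at 16 h, 1.01 at 1.5 d and 0.81 at 3 d, while that of all genes was -0.04, 0.01 and 0.00. These 3 comparisons share the NW libraries, and the 42 were chosen with earlier results of these data known. In bulk RNA, fewer cells of a type and less RNA per cell cannot be told apart.

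Wound and NW libraries did not overlap for 30 of the 42 genes at 16 h, 27 at 1.5 d and 28 at 3 d, beside 41.3%, 40.7% and 40.3% of all genes. With the keratinocyte marker level of each library as a covariate, 5 of the 42 passed at 16 h, 1 at 1.5 d and 4 at 3 d; over all genes the calls were then 1050, 190 and 409, in place of 3687, 3647 and 3147. That marker level did not overlap between wound and NW libraries, and 60.3% of its variance lay between them, so this fit can separate wound and marker level only in part. In it the median log2 change of the 42 was 0.35 at 16 h, 0.88 at 1.5 d and 0.62 at 3 d, with 29, 32 and 32 genes above 0, while the median of all genes was 0.08, 0.13 and 0.10. The genes that passed in it were Hspa5, Ern1, Fkbp7, Fkbp14 and Rcn3 at 16 h, P4hb at 1.5 d, and Pdia5, P4hb, Txndc5 and Fkbp10 at 3 d. The part of keratinocyte RNA in the other changes was not tested.

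**Figure D1:**
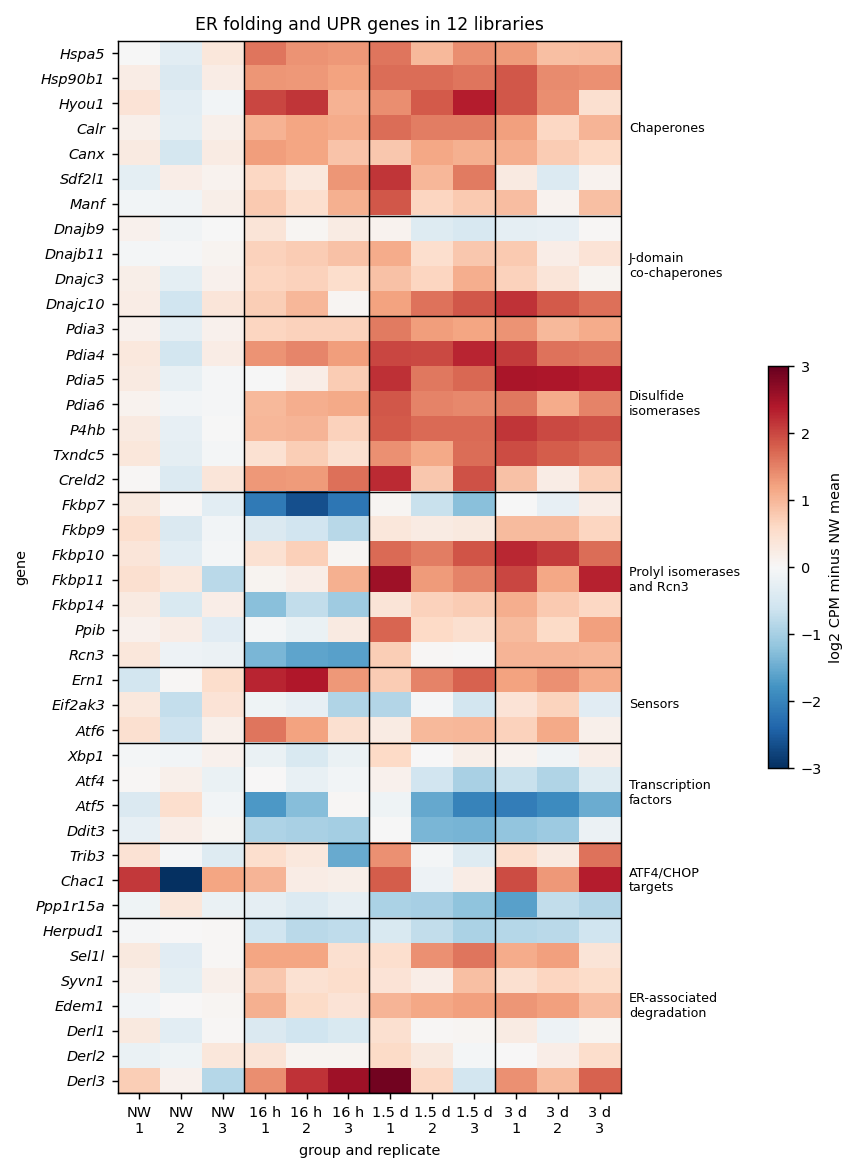
Log2 level of each of the 42 genes (rows, by role) in each of the 12 libraries (columns, by group and replicate), as log2(CPM + 0.1) minus the mean of the 3 NW libraries, with colours limited to 3 either way. Most chaperone and disulfide isomerase rows are red in the wound columns, Fkbp7, Fkbp14 and Rcn3 are bluest at 16 h, and Herpud1 and Ppp1r15a are blue at 1.5 d and 3 d.

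The promoters of several of these genes hold the ER stress response element (ERSE), to which NF-Y and ATF6 are known to bind. It was searched as CCAAT and CCACG with 9 bases of any kind between them, on both strands in the 250 bases before the start of transcription, in the RefSeq promoter table (GRCm38.p6), which held 37 of the 42 genes and not Atf6, Derl1, Fkbp10, Hyou1 or Manf. The element stood before 9 of the 37 genes (24.3%) and before 0.13% of all 27025 genes with a promoter of the same length, and Hsp90b1 had 2. The 42 were listed for known roles in ER folding and stress, so this excess describes the list and is not independent support. The sites are shown because they are a sequence feature that 9 of the genes share; capitals mark the ends that the motif fixes, and each is written in the direction of the motif.
Hspa5: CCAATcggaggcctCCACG
Hsp90b1, far site: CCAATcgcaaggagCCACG
Hsp90b1, near site: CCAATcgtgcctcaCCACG
Calr: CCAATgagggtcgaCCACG
Canx: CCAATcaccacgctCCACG
Creld2: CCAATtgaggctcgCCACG
Pdia6: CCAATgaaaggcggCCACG
Dnajc3: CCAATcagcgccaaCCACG
Syvn1: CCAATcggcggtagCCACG
Derl3: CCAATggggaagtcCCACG
The Hspa5 site lay 65 to 47 bases before the start. The related ERSE-II, searched as ATTGG and CCACG with 1 base between them, stood before 1 of the 37 genes, Herpud1, and before 0.037% of the 27025. The 8-base element TGACGTGG, which XBP1 is known to bind, stood before 1 of the 37, Txndc5, and before 0.603% of the 27025. The ATF4-type element TGATGNAA stood before Chac1, Herpud1 and Txndc5, 8.11% of the 37, and before 3.91% of the 27025. Of the 9 genes with an ERSE, 6 rose at 16 h, 7 at 1.5 d and 5 at 3 d, and none fell; their median log2 changes were 1.10, 1.57 and 0.97. Of the 28 without one, 7 rose and 4 fell at 16 h, 13 and 2 at 1.5 d, and 12 and 3 at 3 d, with medians of 0.08, 0.54 and 0.81. Among all genes tested 13.5%, 13.7% and 12.0% rose and 11.2%, 10.8% and 9.15% fell at the 3 times. Members with an ERSE include the chaperones Hspa5, Hsp90b1, Calr and Canx, so motif and role cannot be told apart here. No site of one motif overlapped a site of another. These shares were not tested against each other, and a match of letters is not a measured binding site.

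All 7 chaperones rose at 1.5 d and 5 of them at 16 h and at 3 d. The counts for this and the other roles are to be read beside the shares of all genes tested. At 16 h, 1.5 d and 3 d 13.5%, 13.7% and 12.0% of those rose, and 11.2%, 10.8% and 9.15% fell. Hspa5 encodes BiP, the ER's main Hsp70 chaperone, which also holds the sensors inactive; it lies at chr2:34772090-34776529 (mm10, plus strand). It had 1495, 1226 and 1907 CPM in NW, 4606, 3836 and 3768 CPM at 16 h, 4629, 2972 and 3997 CPM at 1.5 d, and 3708, 2844 and 2894 CPM at 3 d. Each wound library lay above the highest NW library; the 16 h libraries lay above those of 3 d, and 1.5 d overlapped both. Hspa5 was 2.64-fold higher at 16 h than in NW (log2 1.40 ± 0.25 SE, adjusted p = 0.00152), 2.51-fold at 1.5 d (1.33 ± 0.25, 0.0021) and 2.04-fold at 3 d (1.03 ± 0.24, 0.00973). Per exon length it was the most abundant of the 42 in every group, at 590 ± 131 FPKM in NW, 1556 ± 178 FPKM at 16 h, 1478 ± 320 FPKM at 1.5 d and 1204 ± 185 FPKM at 3 d (CPM per kilobase of exon, SD, n = 3).

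Hsp90b1 encodes GRP94, the Hsp90 chaperone of the ER, at chr10:86690841-86705444 (minus strand). Its levels were 727, 457 and 718 CPM in NW, 1556, 1528 and 1435 CPM at 16 h, 1968, 1978 and 1892 CPM at 1.5 d, and 2249, 1667 and 1607 CPM at 3 d. All wound libraries lay above NW, and those at 1.5 d and 3 d lay above those at 16 h. The rise was 2.38-fold at 16 h (log2 1.25 ± 0.22 SE, adjusted p = 0.00171), 3.07-fold at 1.5 d (1.62 ± 0.23, 0.000379) and 2.90-fold at 3 d (1.54 ± 0.23, 0.000573). Its upstream stretch, chr10:86705445-86705694, is given with both ERSE sites in capitals; the near one is read on the other strand and so appears reversed and complemented.
Hsp90b1: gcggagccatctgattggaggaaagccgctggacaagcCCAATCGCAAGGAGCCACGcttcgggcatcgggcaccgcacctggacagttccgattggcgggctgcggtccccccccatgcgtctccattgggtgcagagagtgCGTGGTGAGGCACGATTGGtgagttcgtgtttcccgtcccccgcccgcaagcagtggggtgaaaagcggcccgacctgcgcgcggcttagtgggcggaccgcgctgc

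Calr encodes calreticulin, a lectin chaperone of new glycoproteins, at chr8:84842088-84846931 (minus strand). Libraries held 611, 447 and 606 CPM in NW, 1129, 1252 and 1185 CPM at 16 h, 1753, 1596 and 1598 CPM at 1.5 d, and 1282, 849 and 1119.7 CPM at 3 d. Levels were highest at 1.5 d, where no library overlapped any other group. Calr rose 2.14-fold at 16 h (log2 1.10 ± 0.21 SE, adjusted p = 0.00249), 2.97-fold at 1.5 d (1.57 ± 0.21, 0.000296) and 1.95-fold at 3 d (0.97 ± 0.21, 0.00587). Its upstream stretch, chr8:84846932-84847181, holds the ERSE on the other strand, in capitals.
Calr: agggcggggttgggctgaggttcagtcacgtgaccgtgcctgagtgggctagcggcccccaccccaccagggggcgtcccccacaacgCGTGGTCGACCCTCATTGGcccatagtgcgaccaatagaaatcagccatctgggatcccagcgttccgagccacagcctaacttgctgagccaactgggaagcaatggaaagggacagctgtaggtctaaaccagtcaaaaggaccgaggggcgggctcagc

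Among the other chaperones, Hyou1, a large Hsp70 relative that exchanges nucleotide on BiP, rose at all 3 times, with log2 changes of 1.78, 1.89 and 1.32. The membrane lectin chaperone Canx, calnexin, also rose at all 3, by 1.06, 0.98 and 0.79. At 3 d both calls were lost without NW replicate 2 or 3 or 3 d replicate 1 or 2, with adjusted p up to 0.137 for Hyou1 and 0.153 for Canx. Sdf2l1, a partner of BiP, and Manf, a small BiP-binding protein that is also secreted, rose at 1.5 d, by 1.63 (adjusted p = 0.00366) and 1.20 (0.0164). The call of Manf was lost without NW replicate 2 or 1.5 d replicate 1, with adjusted p up to 0.0731. At 3 d Sdf2l1 averaged 44.3 ± 10.2 CPM, against 44.3 ± 7.60 CPM in NW (SD, n = 3 each).

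Of the 4 J-domain co-chaperones, which bring BiP to its clients, 1 rose at 16 h, 3 at 1.5 d and 1 at 3 d. Dnajc10 encodes ERdj5, a reductase that opens disulfide bonds in proteins to be degraded. It had 84.9, 47.9 and 93.9 CPM in NW, 121, 145 and 75.5 CPM at 16 h, 168, 223 and 264 CPM at 1.5 d, and 324, 259 and 228 CPM at 3 d. The 16 h libraries overlapped NW, while those of 1.5 d and 3 d lay above both. It rose 2.89-fold at 1.5 d (log2 1.53 ± 0.30 SE, adjusted p = 0.00322) and 3.57-fold at 3 d (1.84 ± 0.31, 0.0013).

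Dnajb11, ERdj3, had 131, 133 and 145 CPM in NW, 218, 229.6 and 251 CPM at 16 h, 297, 192 and 239 CPM at 1.5 d, and 233, 155 and 181 CPM at 3 d. No wound library overlapped NW. It rose at 16 h (log2 0.78 ± 0.21 SE, adjusted p = 0.0163) and 1.5 d (0.83 ± 0.21, 0.0112), while at 3 d the change was 0.48 (0.12). Dnajc3, p58IPK, known to bind BiP and to inhibit PERK, had 288, 206 and 275 CPM in NW, 399, 406 and 363 CPM at 16 h, 465, 399 and 539.9 CPM at 1.5 d, and 409.9, 327 and 268 CPM at 3 d. NW overlapped only the 3 d libraries, and Dnajc3 rose at 1.5 d (0.87 ± 0.21, 0.0105). Dnajb9, ERdj4, a known XBP1 target that represses IRE1, changed by 0.24, -0.23 and -0.16 at the 3 times and passed at none (adjusted p = 0.449, 0.472 and 0.663).

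**Figure D2:**
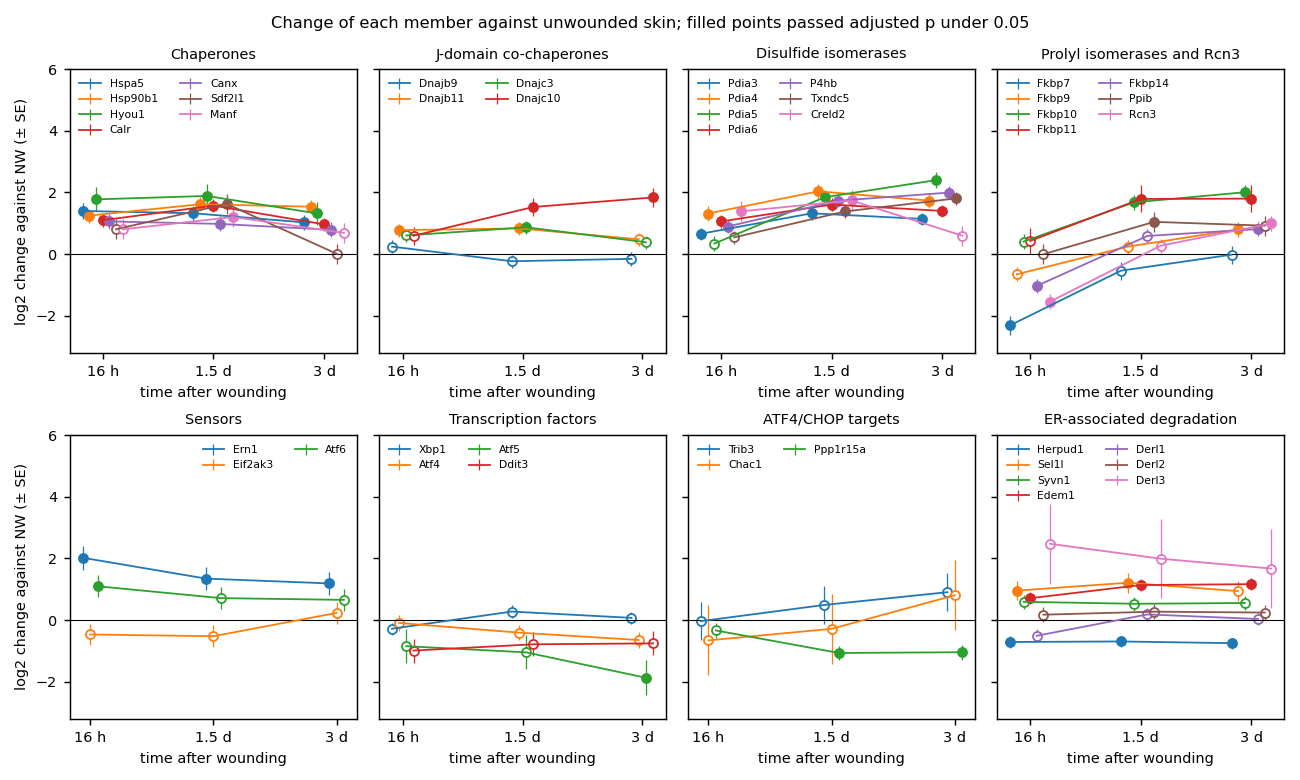
Log2 change against NW (y axis, ± SE) at 16 h, 1.5 d and 3 d (x axis) for the 42 genes, in 1 panel per role; filled points passed an adjusted p under 0.05. Disulfide isomerases lie above 0 at every time, prolyl isomerases spread from -2.31 (Fkbp7) to 0.43 (Fkbp11) at 16 h, and the transcription factors lie near or below 0.

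All 7 disulfide isomerases and related proteins rose at 1.5 d, 5 of them at 16 h and 6 at 3 d. P4hb encodes protein disulfide isomerase, which is also the beta subunit of collagen prolyl 4-hydroxylase, at chr11:120560298-120573253 (minus strand). Libraries held 890.4, 620.0 and 729 CPM in NW, 1473, 1505 and 1186 CPM at 16 h, 2663, 2393 and 2391 CPM at 1.5 d, and 3269, 2904 and 2766 CPM at 3 d. The 4 groups did not overlap, and each later group lay higher. P4hb rose 1.86-fold at 16 h (log2 0.89 ± 0.20 SE, adjusted p = 0.0069), 3.32-fold at 1.5 d (1.73 ± 0.21, 0.000139) and 3.99-fold at 3 d (2.00 ± 0.21, 4.91e-05). Per exon length it ranked 5 of the 42 in NW and 2 at 3 d, at 1042 ± 90.9 FPKM.

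Pdia5, another thioredoxin-fold isomerase, had 34.3, 24.5 and 27.7 CPM in NW, 28.4, 32.7 and 48.6 CPM at 16 h, 131, 85.3 and 94.9 CPM at 1.5 d, and 156, 154 and 147 CPM at 3 d. The 16 h libraries overlapped NW and the later ones lay above both. Its log2 change was 0.34 ± 0.24 SE at 16 h (adjusted p = 0.323), 1.85 ± 0.25 at 1.5 d (0.000288) and 2.40 ± 0.25 at 3 d (5.00e-05), where it was 5.27-fold higher than in NW. Txndc5, ERp46, had 444, 291 and 339.9 CPM in NW, 486, 585 and 494 CPM at 16 h, 917, 769.8 and 1119 CPM at 1.5 d, and 1380.1, 1238 and 1139 CPM at 3 d. No group overlapped another, but the 16 h difference did not pass (0.54 ± 0.22, 0.0845); Txndc5 rose 2.61-fold at 1.5 d (1.38 ± 0.22, 0.000854) and 3.50-fold at 3 d (1.81 ± 0.22, 0.000163). Bases upstream of one of its starts, chr13:38528825-38529074, hold the ATF4-type element on the other strand, in capitals.
Txndc5: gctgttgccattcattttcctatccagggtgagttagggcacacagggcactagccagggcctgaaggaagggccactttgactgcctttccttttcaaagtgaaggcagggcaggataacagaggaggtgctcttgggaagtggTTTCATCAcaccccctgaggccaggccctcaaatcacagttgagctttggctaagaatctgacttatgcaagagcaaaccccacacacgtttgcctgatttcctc

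Of the other isomerases, Pdia4 (ERp72) rose by log2 1.32, 2.04 and 1.74 at the 3 times, Pdia6 (P5) by 1.06, 1.61 and 1.40, and Pdia3 (ERp57, the partner of calnexin and calreticulin) by 0.66, 1.32 and 1.14. The 16 h call of Pdia3 was lost without NW replicate 2 or any 1 of the 16 h libraries, with adjusted p up to 0.104. Creld2, an ER stress-inducible protein with isomerase activity, rose by 1.39 at 16 h (adjusted p = 0.00873) and 1.74 at 1.5 d (0.00254), while at 3 d its change was 0.60 (0.214). The upstream stretch of Pdia6, chr12:17266339-17266588, is given with its ERSE in capitals.
Pdia6: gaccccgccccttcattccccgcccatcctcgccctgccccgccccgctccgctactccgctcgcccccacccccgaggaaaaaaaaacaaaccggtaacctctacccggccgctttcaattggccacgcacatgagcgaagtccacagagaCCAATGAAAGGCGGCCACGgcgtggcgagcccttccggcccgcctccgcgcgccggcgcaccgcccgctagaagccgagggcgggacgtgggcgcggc

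The prolyl isomerases and Rcn3 moved in both directions: at 16 h 3 of the 7 fell and none rose, at 1.5 d 3 rose and none fell, and at 3 d 5 rose and none fell. Rcn3 encodes reticulocalbin 3, a calcium-binding ER protein, at chr7:45082914-45092213 (minus strand). Levels were 737, 524 and 518 CPM in NW, 227, 195 and 188 CPM at 16 h, 973, 595 and 579.9 CPM at 1.5 d, and 1179, 1193 and 1172 CPM at 3 d. The 16 h libraries lay below, and the 3 d libraries above, all others, and NW overlapped 1.5 d. Rcn3 fell by 1.54 ± 0.24 on the log2 scale at 16 h (adjusted p = 0.000658) and rose 1.99-fold at 3 d (0.99 ± 0.24, 0.00982), so that it was 5.81-fold higher at 3 d than at 16 h (2.54 ± 0.25, 9.27e-05). Per exon length its rank among the 42 was 2 in NW libraries, 12 in those of 16 h, 7 in those of 1.5 d and 3 in those of 3 d.

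Fkbp10 encodes FKBP65, a chaperone of type I collagen, and shares 7.41% of its exon length with Nt5c3b, where fragments were not counted. It had 301, 189.6 and 225 CPM in NW, 323, 382 and 244 CPM at 16 h, 756, 675 and 864 CPM at 1.5 d, and 1122, 1007 and 751 CPM at 3 d. NW and 16 h overlapped, and so did 1.5 d and 3 d, with the later pair above the earlier. Fkbp10 rose 3.20-fold at 1.5 d (log2 1.68 ± 0.25 SE, adjusted p = 0.000572) and 4.02-fold at 3 d (2.01 ± 0.25, 0.000178). Fkbp14, FKBP22, also a collagen isomerase, had 96.8, 58.4 and 92.5 CPM in NW, 34, 48.6 and 38.3 CPM at 16 h, 106, 131 and 136 CPM at 1.5 d, and 173, 138 and 124 CPM at 3 d. The 16 h libraries were below and the later ones above NW, and Fkbp14 fell by 1.03 ± 0.24 at 16 h (0.00719) and rose by 0.81 ± 0.24 at 3 d (0.0271). The 3 d call was lost without NW replicate 2 or 3 or 3 d replicate 1, with adjusted p up to 0.132.

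Fkbp7, an ER prolyl isomerase, had the largest fall of the 42 at 16 h: it averaged 25.3 ± 4.63 CPM, against 126 ± 26.1 CPM in NW (SD, n = 3 each), and fell by 2.31 ± 0.31 on the log2 scale (adjusted p = 0.000295). At 1.5 d and 3 d its libraries overlapped NW, with log2 changes of -0.54 (0.209) and -0.02 (0.974). Fkbp11, an isomerase of secretory cells, rose by 1.79 at 1.5 d (0.0101) and 1.80 at 3 d (0.0114). Fkbp9 rose at 3 d by 0.80 (0.0281), a call lost without NW replicate 2 or 3 or 3 d replicate 1 or 2, with adjusted p up to 0.103. Ppib, cyclophilin B, which folds collagen, rose at 1.5 d by 1.05 (0.0303); that call was lost without NW replicate 1 or 3 or 1.5 d replicate 1, with adjusted p up to 0.151. Ppib shares 54.2% of its exon length with Snx22, where fragments were not counted, so its level is uncertain.

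**Figure D3:**
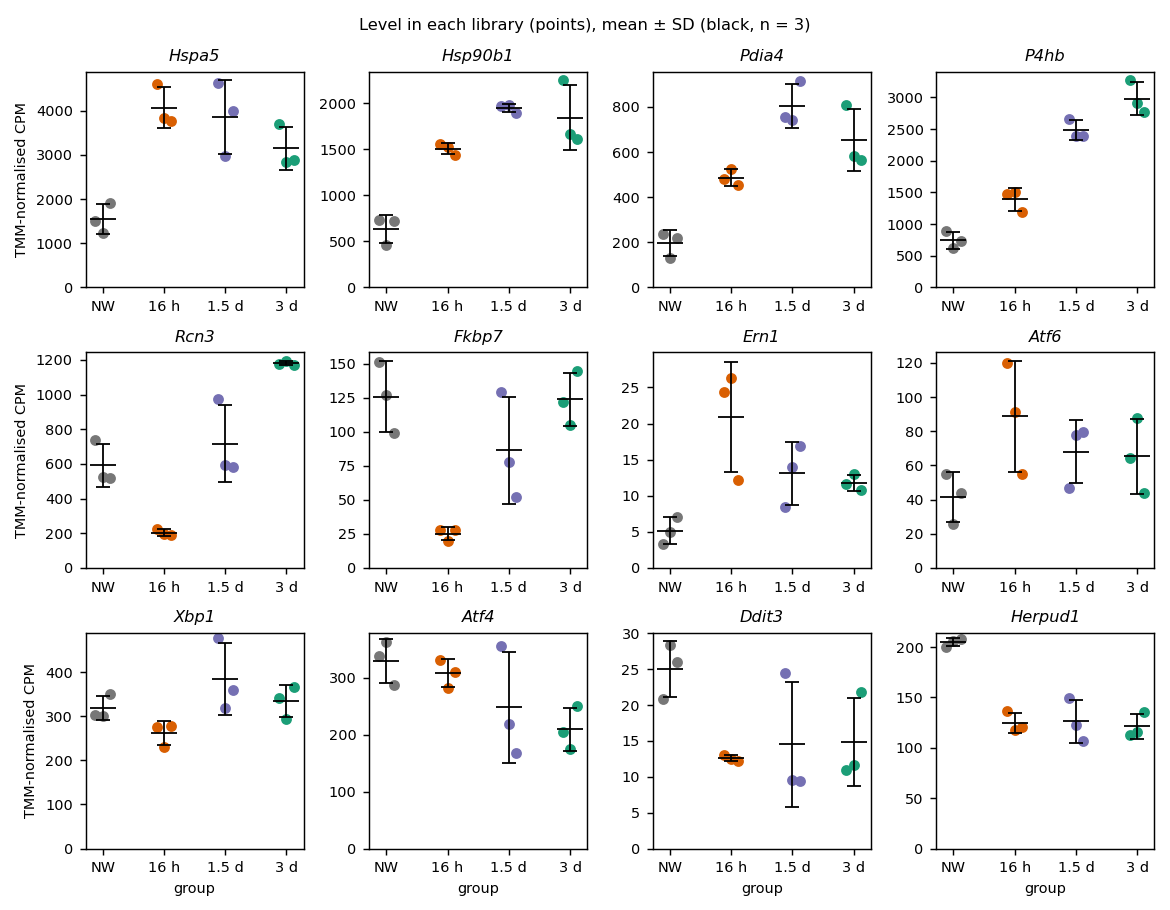
TMM-normalised CPM (y axis, from 0) of 12 of the genes in each library (points), with mean ± SD of 3 libraries (black), by group. Hspa5, Hsp90b1, Pdia4 and P4hb lie higher in every wound library than in NW, Rcn3 and Fkbp7 are lowest at 16 h, and Herpud1 is lower in every wound library than in NW.

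Between the wound times the changes were fewer. At 1.5 d against 16 h 6 of the 42 rose and none fell, beside 2.39% up, 0.470% down and 2.86% in all among the genes tested, and the libraries of 19 did not overlap, beside 23.4%. Those that rose were the prolyl isomerase group members Rcn3, Fkbp7, Fkbp14 and Fkbp10, by log2 1.82, 1.77, 1.62 and 1.27, and the disulfide isomerases Pdia5 and P4hb, by 1.51 and 0.84. The call of P4hb (adjusted p = 0.0451) was lost in 10 of the 12 fits that left out 1 library, all but those without NW replicate 1 or 2, with adjusted p up to 0.143. That of Fkbp10 was lost without 16 h replicate 1 or 3 or 1.5 d replicate 3 (up to 0.0667), and that of Fkbp7 without 16 h replicate 2 (0.0546). DESeq2 called 15 of the 42 in this comparison, 14 of them higher, beside 1192 of the 14581 genes it tested. At 3 d against 16 h 9 rose and none fell, beside 5.86% up, 3.67% down and 9.53% in all, and the libraries of 23 did not overlap, beside 32.5%. Those that rose were Rcn3, Fkbp7, Fkbp14, Fkbp10 and Fkbp9, the disulfide isomerases Pdia5, Txndc5 and P4hb, and Dnajc10, with log2 changes between 1.10 (P4hb) and 2.54 (Rcn3). The call of Dnajc10 (1.24, adjusted p = 0.0206) was lost without 16 h replicate 1 or 3 or 3 d replicate 1 or 2, with adjusted p up to 0.0935. None of the 7 chaperones passed in either comparison by edgeR, DESeq2 or limma-voom; by edgeR 2 had an unadjusted p under 0.05 at 1.5 d and 1 at 3 d against 16 h.

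At 3 d against 1.5 d edgeR called none of the 42, beside 0.101% up, 0.0403% down and 0.141% in all; 7 had an unadjusted p under 0.05, limma-voom called none and DESeq2 called 1, which fell. The smallest p among the 42 was that of Sdf2l1, which had 52.5, 32.9 and 47.5 CPM at 3 d, against 194, 86.8 and 129 CPM at 1.5 d (log2 -1.63 ± 0.33 SE, adjusted p = 0.0844).

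Of the 3 sensors, Ern1 rose at every time, Atf6 rose at 16 h and Eif2ak3 did not pass. Ern1, which encodes IRE1alpha, was scarce, with 3.32, 5.03 and 7.10 CPM in NW, 24.3, 26.3 and 12.2 CPM at 16 h, 8.40, 14 and 16.9 CPM at 1.5 d, and 11.6, 13 and 10.7 CPM at 3 d. All wound libraries lay above NW. It was 4.06-fold higher at 16 h (log2 2.02 ± 0.39 SE, adjusted p = 0.00273), 2.54-fold at 1.5 d (1.35 ± 0.38, 0.0219) and 2.28-fold at 3 d (1.19 ± 0.38, 0.0425). The 1.5 d call was lost without NW replicate 1 or 2 or 1.5 d replicate 2 or 3, with adjusted p up to 0.0887. The 3 d call was lost in 8 of the 12 fits that left out 1 library, namely NW replicates 1 and 2, 16 h replicates 1 and 2, 1.5 d replicate 2 and each 3 d library, with adjusted p up to 0.126.

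Atf6 had 55.2, 25.7 and 43.8 CPM in NW, 120.0, 91.3 and 55.2 CPM at 16 h, 46.7, 77.9 and 79.4 CPM at 1.5 d, and 64.4, 87.9 and 43.9 CPM at 3 d. The lowest 16 h library met the highest of NW and the later groups overlapped NW, with log2 changes of 1.10 ± 0.36 SE at 16 h (adjusted p = 0.0416), 0.71 ± 0.36 at 1.5 d (0.171) and 0.65 ± 0.36 at 3 d (0.222). The 16 h call was lost without NW replicate 2 or 3, 16 h replicate 1 or 2, or 1.5 d replicate 2 or 3, with adjusted p up to 0.156. Eif2ak3, which encodes PERK, had 59.3, 29 and 63 CPM in NW, 43.7, 40.2 and 25.3 CPM at 16 h, 25.8, 46.6 and 32.6 CPM at 1.5 d, and 63.7, 75.9 and 37.9 CPM at 3 d, overlapping at every time. Its changes were -0.47 (0.359), -0.53 (0.304) and 0.23 (0.694). In each group the library lowest in Atf6 and in Eif2ak3 was also the one where transcripts of 5000 bases or more were lowest relative to those under 1500. These were NW replicate 2, 16 h replicate 3, 1.5 d replicate 1 and 3 d replicate 3. The same libraries were also the lowest of their groups for Hyou1, Canx, Dnajc10 and Sel1l, and the highest for Atf5 and Ppib. Edem1 and Dnajc3, also of 5000 bases or more, did not follow this in every group. Edem1 had 85.9 CPM in NW replicate 1 and 92.0 CPM in NW replicate 2. Dnajc3 had 399 CPM in 1.5 d replicate 2 and 465 CPM in 1.5 d replicate 1. With that length difference as a covariate, chosen after the data were seen, Atf6 changed by 0.85 (0.00274), 0.71 (0.00682) and 0.41 (0.0914), and Eif2ak3 by -0.67 (0.0162), -0.49 (0.0567) and 0.014 (0.968).

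None of the 4 transcription factors rose at any time. By edgeR's test none fell at 16 h, where 1 had an unadjusted p under 0.05, limma-voom called none and DESeq2 called 1, or at 1.5 d, where none had, DESeq2 called none and limma-voom called 2 that fell; Atf5 fell at 3 d. Xbp1 had 303, 301 and 349 CPM in NW, 276, 230.1 and 277 CPM at 16 h, 476, 318 and 359 CPM at 1.5 d, and 341, 294 and 366 CPM at 3 d. The 16 h libraries lay below NW and the others overlapped it, with log2 changes of -0.28 (adjusted p = 0.32), 0.27 (0.339) and 0.07 (0.845). Atf4 had 338, 362 and 287 CPM in NW, 332, 282 and 311 CPM at 16 h, 357, 219 and 168 CPM at 1.5 d, and 205, 174 and 249.8 CPM at 3 d. The 3 d libraries lay below NW, and the changes were -0.10 ± 0.26 SE (0.822), -0.41 ± 0.26 (0.268) and -0.65 ± 0.26 (0.0895). Without 1.5 d replicate 1, Atf4 passed as lower at 1.5 d (-0.76, 0.0308) and at 3 d (-0.64, 0.0342), and with the length covariate it passed at 3 d (0.04).

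Ddit3 encodes CHOP, a transcription factor tied to cell death under lasting ER stress, and shares 7.81% of its exon length with Mars1. It had 20.8, 28.3 and 26 CPM in NW, 13, 12.5 and 12.2 CPM at 16 h, 24.5, 9.55 and 9.43 CPM at 1.5 d, and 10.9, 11.6 and 21.9 CPM at 3 d. The 16 h libraries lay below NW, and at 1.5 d and 3 d 1 library of each overlapped it. Log2 changes were -0.99 ± 0.39 SE at 16 h (adjusted p = 0.0796), -0.79 ± 0.39 at 1.5 d (0.158) and -0.76 ± 0.39 at 3 d (0.187). Ddit3 passed as lower at 16 h by DESeq2 (0.039), with only the groups compared in the fit (0.0215) and without 1.5 d replicate 1 (0.0295). At 1.5 d it passed as lower by limma-voom (0.0438), with the length covariate (0.0285) and without 1.5 d replicate 1 (-1.39, 0.0149). Atf5 had 10.1, 19.4 and 12.8 CPM in NW, 4.07, 5.54 and 13.8 CPM at 16 h, 12.5, 4.63 and 3.32 CPM at 1.5 d, and 3.13, 3.57 and 4.81 CPM at 3 d. The 3 d libraries lay below NW and Atf5 fell by 1.87 ± 0.57 there (0.0322), a call lost without NW replicate 2 or 3 or any 1 of the 3 d libraries, with adjusted p up to 0.110.

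Among the 3 ATF4 and CHOP targets, Ppp1r15a fell at 1.5 d and 3 d and the other two did not pass. Ppp1r15a encodes GADD34, which leads a phosphatase to eIF2alpha and so restores translation. It had 359, 495 and 343 CPM in NW, 325, 297 and 324 CPM at 16 h, 203, 196 and 171 CPM at 1.5 d, and 127, 236 and 215 CPM at 3 d. All wound libraries lay below NW. At 16 h none of the 3 targets had an unadjusted p under 0.05 by edgeR, DESeq2 or limma-voom. Log2 changes of Ppp1r15a were -0.34 ± 0.24 SE at 16 h (adjusted p = 0.319), -1.07 ± 0.24 at 1.5 d (0.00611) and -1.05 ± 0.24 at 3 d (0.00795). The 18 genes that respond to dissociation took more of the counts in NW. Of them 12 fell at 16 h, 15 at 1.5 d and 13 at 3 d, and 1 rose at each time. Their part in the fall of Ppp1r15a was not tested.

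Trib3, a pseudokinase that binds ATF4, had 5.46, 3.95 and 3.05 CPM in NW, 5.74, 5.06 and 1.34 CPM at 16 h, 10.6, 3.89 and 3.05 CPM at 1.5 d, and 5.74, 4.91 and 12.6 CPM at 3 d. Chac1, which degrades glutathione, had 4.16, 0 and 2.12 CPM in NW, 1.90, 1.05 and 1.01 CPM at 16 h, 3.33, 0.788 and 1.04 CPM at 1.5 d, and 3.70, 2.31 and 4.95 CPM at 3 d. Both were low, and every wound group overlapped NW. The adjusted p values were 0.977, 0.610 and 0.336 for Trib3 and 0.714, 0.884 and 0.667 for Chac1. In NW replicate 2, a true level of Chac1 of up to about 3 counts, or 0.0987 CPM, could have gone undetected. This limit holds for that library only: NW replicates 1 and 3 had 109 and 64 counts.

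Of the 7 genes of ER-associated degradation, 2 rose at 16 h and at 1.5 d and 1 at 3 d, while Herpud1 fell at all 3. The 14.3% that rose at 3 d was near the 12.0% of all genes tested. Of the 7, 2 differed among the 4 groups (28.6%), near the 29.7% of all genes tested. Edem1, a lectin that directs trimmed glycoproteins to degradation, had 85.9, 92 and 95 CPM in NW, 189.6, 134 and 122 CPM at 16 h, 183, 202 and 214 CPM at 1.5 d, and 228, 213 and 171 CPM at 3 d. No wound library overlapped NW, and Edem1 rose by log2 0.71 ± 0.20 SE (adjusted p = 0.0216), 1.14 ± 0.20 (0.00172) and 1.16 ± 0.20 (0.00174). The 16 h call was lost without NW replicate 1 or 2 or 16 h replicate 1, with adjusted p up to 0.111. Sel1l, the adaptor of the ubiquitin ligase HRD1, had 144, 92.7 and 121 CPM in NW, 264, 266 and 163 CPM at 16 h, 165, 304 and 356 CPM at 1.5 d, and 255, 276 and 153 CPM at 3 d. No wound library overlapped NW, and the changes were 0.95 ± 0.32 (0.0439), 1.21 ± 0.32 (0.0152) and 0.94 ± 0.32 (0.0527). The 16 h call was lost without NW replicate 2 or 3, 16 h replicate 1 or 2, 1.5 d replicate 2 or 3 d replicate 2 (adjusted p up to 0.138), and the 1.5 d call without NW replicate 2 or 1.5 d replicate 3 (up to 0.0701).

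Herpud1 encodes a membrane scaffold of the degradation complex and is a known target of ATF6 and ATF4, at chr8:94386429-94395371 (plus strand). Its levels were 200.2, 206 and 208 CPM in NW, 136, 118 and 121 CPM at 16 h, 149, 123 and 107 CPM at 1.5 d, and 113, 116 and 136 CPM at 3 d. Every wound library lay below every NW library. Herpud1 fell by 0.71 ± 0.18 on the log2 scale at 16 h (adjusted p = 0.0117), by 0.70 ± 0.18 at 1.5 d (0.0129) and by 0.75 ± 0.18 at 3 d (0.0102). Each call was lost without 1 library, 16 h replicate 2 (0.0595), 1.5 d replicate 3 (0.0698) and 3 d replicate 1 (0.0554). Its upstream stretch, chr8:94386179-94386428, is shown because the gene fell while carrying the elements named; it was chosen after its values were seen. Capitals mark the ATF4-type element, on the other strand, and then the ERSE-II.
Herpud1: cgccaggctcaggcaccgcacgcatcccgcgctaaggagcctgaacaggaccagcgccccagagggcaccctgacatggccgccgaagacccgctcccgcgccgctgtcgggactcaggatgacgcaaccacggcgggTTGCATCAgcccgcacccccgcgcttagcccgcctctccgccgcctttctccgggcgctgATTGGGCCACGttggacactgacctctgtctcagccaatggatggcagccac
Syvn1, the ligase HRD1, changed by 0.59, 0.53 and 0.55 at the 3 times and did not pass (adjusted p = 0.0696, 0.103 and 0.097). The derlins, channel components of the degradation path, did not pass either. Derl1 changed by -0.51 (adjusted p = 0.0885), 0.18 (0.567) and 0.03 (0.936), and its 16 h libraries lay below NW. Derl2 changed by 0.17 (0.632), 0.27 (0.437) and 0.24 (0.512). At 16 h DESeq2 called 2 of the 7 degradation genes as lower, and edgeR 1. Derl3, known for secretory cells, was the scarcest of the 42 per exon length in every group and reached 1.70 CPM at most.

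Other genes of the same pathways were counted from 9 lists of 18 to 25 genes that hold none of the 42, to be read beside the 13.5%, 13.7% and 12.0% of all tested genes that rose and the 11.2%, 10.8% and 9.15% that fell. These lists too were chosen with earlier results of these data known. Of 20 genes of the translocon and signal peptidase 5 rose at 16 h, 11 at 1.5 d and 10 at 3 d, and 1 fell, at 1.5 d. Sec61a1, the channel itself, was 3.30-fold higher at 1.5 d, at 1185 ± 227 CPM against 359 ± 91.5 CPM in NW (SD, n = 3 each, adjusted p = 0.000484). Of 18 genes of N-glycosylation and glycan trimming 7, 14 and 12 rose and none fell at any time by the same test. Rpn1 of the oligosaccharyltransferase was 2.03-fold, 2.93-fold and 2.37-fold higher at the 3 times, and its catalytic partner Stt3a 2.32-fold, 3.17-fold and 3.29-fold. Of 24 tested genes of other folding and oxidation 7, 15 and 13 rose and none fell. Ero1l, the oxidase that recharges disulfide isomerase, was 3.47-fold, 3.48-fold and 4.48-fold higher, and P3h1, collagen prolyl 3-hydroxylase, was 3.86-fold higher at 3 d (adjusted p = 0.000153) but did not pass at 16 h (0.181).

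ER to Golgi traffic had 3, 12 and 11 of 22 genes up and 2, 1 and none down; its 13.6% up at 16 h was close to the share of all genes. Kdelr3, a receptor that returns ER proteins from the Golgi, fell at 16 h and rose later: it averaged 71.7 ± 7.60 CPM at 16 h, against 187 ± 37.3 CPM in NW (adjusted p = 0.00151), while it averaged 307 ± 89.0 CPM at 1.5 d (0.0439) and 341 ± 52.0 CPM at 3 d (0.0217). Other genes of degradation had 4 of 20 up at each time (20%) and 1 down, at 3 d, with median log2 changes of 0.036, 0.33 and 0.18, near the general rate; Vcp, the ATPase that pulls proteins from the membrane, was 3.15-fold, 2.24-fold and 2.30-fold higher. Of 19 tested other sensors and transducers 7, 6 and 3 rose and 1, none and none fell; Creb3l2, a membrane-bound factor of secretory capacity, was 3.54-fold, 4.24-fold and 4.33-fold higher.

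Known targets of ATF4 were counted in a pair of lists, which were not tested against each other. Of 25 genes of amino acid supply and tRNA charging 16, 15 and 14 rose and 2, none and none fell, with median log2 changes of 0.97, 0.88 and 0.80. The transporter Slc7a5 was 4.95-fold, 3.46-fold and 2.69-fold higher and the tRNA synthetase Nars 2.97-fold, 2.29-fold and 1.87-fold, whereas Pycr1, of proline synthesis, averaged 11.9 ± 0.624 CPM at 16 h, against 61.4 ± 18.5 CPM in NW (adjusted p = 7.5e-05). Of 20 stress genes of the same factor 3, 4 and 4 rose and 8, 7 and 6 fell, with medians of -0.83, -0.60 and -0.30. Atf3 averaged 558 ± 122 CPM at 16 h, 355 ± 122 CPM at 1.5 d and 400.1 ± 227 CPM at 3 d, against 2074 ± 367 CPM in NW (0.00636, 0.00134 and 0.00216). Atf3 is also among the 18 genes that respond to dissociation. Of them 12 fell at 16 h, 15 at 1.5 d and 13 at 3 d, and 1 rose at each time. Their part was not tested. Vegfa, a growth factor that hypoxia also induces, was 6.67-fold, 4.83-fold and 3.70-fold higher.

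**Figure D4:**
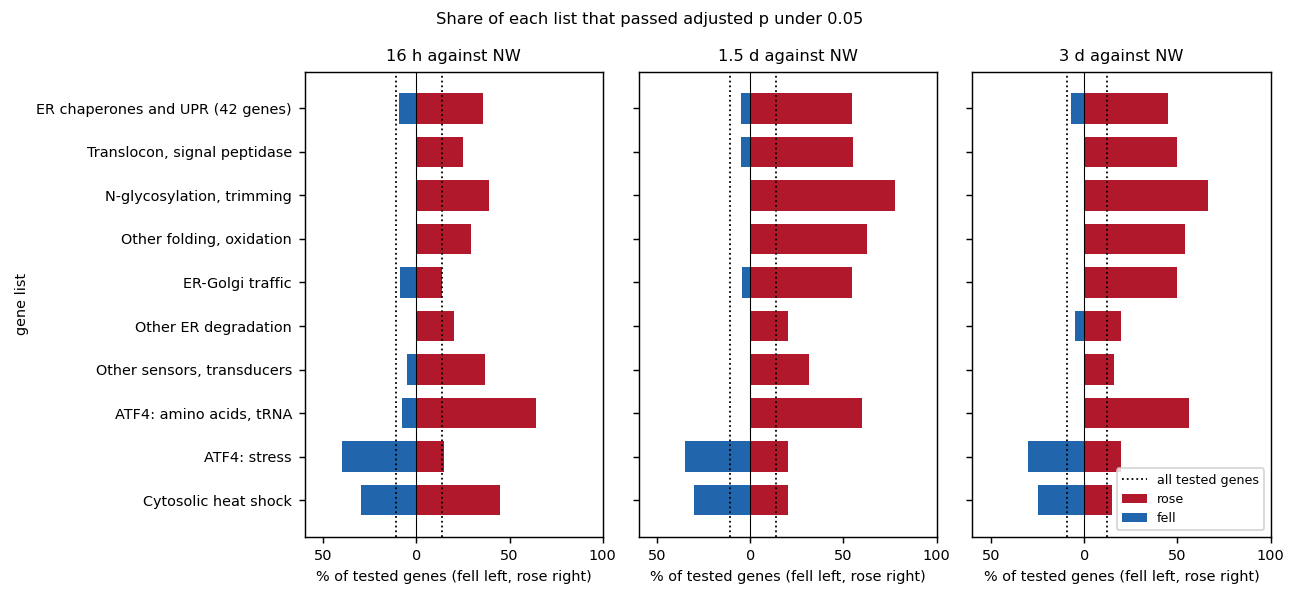
Share of each gene list (rows) that rose (red, to the right) or fell (blue, to the left) in each wound group against NW, in percent of genes tested; dotted lines give the shares of all tested genes. The 42 genes and the lists of glycosylation, folding and translocation extend to the right of the dotted line at each time, while the stress targets of ATF4 extend further to the left.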

How the data were processed

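Per the file headers, the authors counted read pairs over exons of the mm10 refGene annotation with featureCounts 2.0.0, with no strand, multi-mapping or overlap option, and deposited raw counts per gene symbol, which were used unchanged. The deposited Length column holds exon length per gene, in bases, and served for FPKM and for classes of transcript length. STAR, SAMtools, Subread and Partek are named in the submitters' processing notes without versions. Libraries were made with the SMART-Seq v4 kit, per the labels' protocols, a chemistry that does not keep strand. All value columns were matched to labelled samples.

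In R 4.3.3, filterByExpr kept 14901 genes, TMM scaled the libraries, and edgeR 4.0.16 was fitted by group over all 12 libraries (robust quasi-likelihood, Benjamini-Hochberg over all genes). SEs are the log2 change over the square root of F and are approximate. DESeq2 1.42.0, limma 3.58.1 (voom), other scalings, filters and covariates, a replicate block and leaving out each library were alternatives; the transcript-length covariate was added after the data were seen. The fit was tested on simulated data. Values per library are given for Hspa5, Hsp90b1, the sensors, Xbp1, Atf4, Ddit3 and the 3 members per role with the smallest F-test p; up to 4 genes per list are named by the same p. The members and lists were chosen with earlier results of these data known. Libraries of a group are from different mice, per the labels' design text.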

Additional observations from a re-analysis of the deposited data

How the results depend on the processing

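Counts of the 42 genes called kept within 1.5 times the reported count under the other scalings, filters and tools in most comparisons. The exceptions were these. With the keratinocyte marker level as a covariate, 5 genes passed at 16 h, 1 at 1.5 d and 4 at 3 d against NW, and 9 among the 4 groups, in place of 19, 25, 22 and 27, while the median log2 change of the 42 was 0.35, 0.88 and 0.62 against NW, in place of 0.57, 1.01 and 0.81. At 1.5 d against 16 h, DESeq2 called 15 and a fit with the transcript-length score 15, in place of 6. At 3 d against 1.5 d, 1 was called with no filter, by DESeq2 and with the transcript-length score, in place of 0. At 3 d against 16 h the transcript-length score gave 15, in place of 9. The cause of these shifts was not tested. Leaving out 1 library gave 15 to 21 calls at 16 h, 22 to 27 at 1.5 d, 15 to 25 at 3 d, 4 to 7 at 1.5 d against 16 h, 0 to 1 at 3 d against 1.5 d (1 without 1.5 d replicate 2), 8 to 11 at 3 d against 16 h, and 22 to 30 among the 4 groups. The log2 changes of 3 genes that had not passed turned sign: Atf4 at 16 h became 0.043 with the transcript-length score, Eif2ak3 at 3 d ranged from -0.042 (without NW replicate 2) to 0.476 (without 3 d replicate 3), and Xbp1 at 3 d became -0.036 with total-count scaling, which moved the median of all genes by -0.11 there.

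Libraries with the same replicate number did not deviate together: over 18 such pairs r was -0.17 to 0.17, and 3 of 12 libraries correlated best with their own number. With replicate number as a block, 17, 24 and 18 genes passed against NW, 5 at 1.5 d and 9 at 3 d against 16 h, 0 at 3 d against 1.5 d and 25 among the 4 groups. Depth limits only the scarcest genes, where 3 counts stand for 0.0664 to 0.122 CPM. For the others the limit is the spread between libraries of a group, in which mice and library preparation cannot be told apart.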

Other observations

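The chaperones of the cytosol and mitochondria, a list of 20 genes outside the ER, moved in both directions. At 16 h 9 rose and 6 fell, at 1.5 d 4 rose and 6 fell, and at 3 d 3 rose and 5 fell. Among all genes tested 13.5%, 13.7% and 12.0% rose and 11.2%, 10.8% and 9.15% fell. The 15% of the list that rose at 3 d was close to the share of all genes. Median log2 changes were 0.59, 0.27 and 0.04. Hspd1, the mitochondrial chaperonin, was 4.75-fold, 2.79-fold and 2.17-fold higher than in NW at the 3 times, and Hspa4, a nucleotide exchange factor of cytosolic Hsp70, 3.35-fold, 1.94-fold and 1.58-fold. Stip1, which joins Hsp70 to Hsp90, was 3.21-fold, 2.47-fold and 1.74-fold higher. Each of these 3 genes was lower at 3 d than at 16 h (adjusted p = 0.00503, 0.00231 and 0.0162, edgeR). The small heat shock gene Hspb1 averaged 51.8 ± 11.8 CPM at 16 h, 55.1 ± 15.9 CPM at 1.5 d and 65.8 ± 22.9 CPM at 3 d, against 528 ± 222 CPM in NW (SD, n = 3 each, adjusted p = 7.88e-05, 0.000101 and 0.000163). Keratinocytes are also known to express Hspb1, and keratinocyte markers were higher in NW; their part in its fall was not tested.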
